A study of Mus musculus with 6 samples.

Results

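The transcripts described are 10 genes of the circadian clock and its direct output, taken by symbol from a table of 24421 gene symbols: Arntl, Clock and Npas2 of the positive limb, Per1, Per2, Per3, Cry1 and Cry2 of the negative limb, and the output factors Dbp and Tef. All 10 were in the table and all 10 passed the filter on low counts, among 12945 genes that did. They were measured by RNA sequencing of liver in 6 libraries, 3 labelled Sesn3 KO and 3 labelled wild type (WT). Replicate numbers were assigned here in the order of deposition, only name the libraries and pair none across genotypes. Every library was labelled as from a male C57BL/6 mouse aged 4 months, fed for 4 weeks on a diet with 40% of energy from fat, 40% from carbohydrate and 20% from protein, to which 1.25% cholesterol and the bile salt sodium cholate (0.5%) had been added. Sesn3 encodes sestrin 3, a stress-inducible regulator of nutrient signalling. The sources used here do not give the construction of the Sesn3 allele, the tissues that lost it or the hour at which livers were taken.

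The circadian clock is a loop in which the proteins of Arntl (also called Bmal1) and Clock, or its relative Npas2, pair on E-box DNA and switch on the Per and Cry genes, whose proteins enter the nucleus and inhibit that pair. A second loop runs through the nuclear receptors REV-ERB (Nr1d1, Nr1d2), which repress Arntl and Npas2, and the ROR receptors, which activate them. In mouse liver the transcripts peak in a known order through the day: Nr1d1 and Dbp come first, the Per genes follow, then Cry1 and Nfil3, and Arntl and Npas2 come last, opposite to Nr1d1 and Dbp. Dbp and Tef encode PAR bZIP factors, which bind D-box DNA and pass the rhythm on to enzymes of drug, heme and bile acid metabolism.

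Promoter stretches of 4 members are printed because they carry exact copies of the letters through which these limbs are wired together. RefSeq windows from 250 bases before to 50 bases after an annotated transcript start (GRCm38.p6) were found for 9 of the 10 members, 14 windows in all. The E-box (CACGTG, the same on both strands) was in windows of Cry1, Per1 and Tef, and in 7.15% of all 32851 windows. One form of the D-box (TTATGTAA, both strands) was in the Per3 window at 2 places, and in 0.938% of all windows. Capitals mark the E-box in the first 3 stretches and the D-boxes in the last. Each is written in the direction of transcription and none overlaps an annotated exon. They lie at chr11:69098738-69098833 (plus strand, Per1), chr10:85185065-85185159 (minus strand, Cry1), chr15:81811231-81811326 (plus strand, Tef) and chr4:151044771-151044915 (minus strand, Per3).

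Per1: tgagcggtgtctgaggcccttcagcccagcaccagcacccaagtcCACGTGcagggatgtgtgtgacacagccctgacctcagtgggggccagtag
Cry1: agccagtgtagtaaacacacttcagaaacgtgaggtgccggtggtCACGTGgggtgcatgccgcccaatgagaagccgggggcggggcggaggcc
Tef: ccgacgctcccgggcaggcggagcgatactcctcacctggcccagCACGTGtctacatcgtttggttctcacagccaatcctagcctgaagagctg
Per3: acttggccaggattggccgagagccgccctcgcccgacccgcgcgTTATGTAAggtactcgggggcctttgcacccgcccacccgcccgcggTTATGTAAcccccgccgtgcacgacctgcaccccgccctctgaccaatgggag

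Counted from the RefSeq start of the window, with bases before it negative, the E-box begins at -166 in Per1, at -60 in Cry1 and at -138 in the Tef window shown, and another Tef window also held one. For Per1 and the Tef window shown, that start is an alternative one inside the annotated gene, downstream of its first base. The 2 D-boxes of Per3 begin at -205 and -158. The half-site bound by REV-ERB and ROR receptors (AGGTCA, both strands, in 16.3% of all windows) was in windows of Arntl, Clock and Per1. The other D-box form searched (TTACGTAA, 0.119% of windows) and the cAMP response element (TGACGTCA, 1.79%) were in no window of a member. No motif match overlapped another. A match of letters is a description of these windows, not a bound site.

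The libraries held between 18882220 and 24098512 counts. Sesn3 was at 18, 18 and 16 counts in the KO libraries and at 172, 200 and 195 in WT (log2 fold change -3.84, SE 0.22, edgeR adjusted p = 0.00183). Hepatocyte markers were abundant in every library, with the summed level of 8 of 8 listed markers at 92346 to 112667 CPM (counts scaled to a common library size with TMM factors) in KO and 88055 to 141685 in WT. Alb made up most of that sum in each library. Of these 8 markers, 6 had a negative log2 fold change and 0 were called with edgeR. DESeq2 called 3 of them lower, against 8.2% of all tested genes. Summed stellate cell markers, all 8 in the table and none at 0 throughout, ran from 842 to 1077 CPM in KO and from 313 to 481 in WT, and 3 of them were called higher. Summed macrophage markers, all 9 in the table and none at 0 throughout, ran from 2382 to 2906 CPM in KO and from 1023 to 2496 in WT. Of these 9, 7 had a positive log2 fold change, 2 of them (Clec4f and Vsig4) called higher, and 2 had a negative one. Summed cholangiocyte markers, 7 of 7 in the table and none at 0 throughout, ran from 107 to 125 CPM in KO and from 55.3 to 99.7 in WT, with 1 called higher (Tff3). Of all tested genes, 3.36% were called higher. Summed sinusoidal endothelial markers, all 8 in the table, ran from 208 to 444 CPM in KO and from 377 to 486 in WT. Of these 8, 7 had a negative log2 fold change and 0 were called. The lymphocyte sum ran from 7.79 to 11.2 CPM in KO and from 8.44 to 19.9 in WT. The neutrophil sum, over 5 of 6 listed markers, ran from 13.4 to 20.7 CPM in KO and from 9.13 to 31.8 in WT. The part of these cell types in the values below was not tested, and in bulk liver fewer cells of a type and less RNA per cell cannot be told apart.

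The comparison of KO with WT asks whether both limbs of the clock differ between the genotypes in the directions that a shift of phase would give. All 3 positive-limb genes had higher fitted levels in KO, and all 7 negative-limb and output genes had lower ones. Of all 12945 tested genes, 6510 had a positive log2 fold change and 6435 a negative one. Clock stood at 0.21 (SE 0.19). The sign turned positive for Per1 (0.072) without KO replicate 1 and for Cry1 (0.20) without WT replicate 1. Nr1d1, which peaks opposite to Arntl, also had a positive value (0.19, SE 0.57). None of the 10 passed the edgeR quasi-likelihood test at an adjusted p under 0.05, a threshold that 3.36% of all 12945 tested genes passed as higher in KO and 3.58% as lower. At an unadjusted p under 0.05, 2 members were higher (Arntl and Npas2) and 0 lower, against 12.5% and 13.3% of all genes. With DESeq2, Arntl (adjusted p = 0.0130) and Npas2 (adjusted p = 0.0270) were called higher and 0 members lower, against 7.11% and 8.2% of all genes. Libraries of the genotypes did not overlap for Arntl and Npas2 (higher in KO) or for Per3 and Tef (lower in KO), 4 of 10, against 16.9% and 16.6% of all genes in those directions. The median log2 fold change was -0.42 over the 10 members and 0.00267 over all tested genes.

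**Figure D1:**
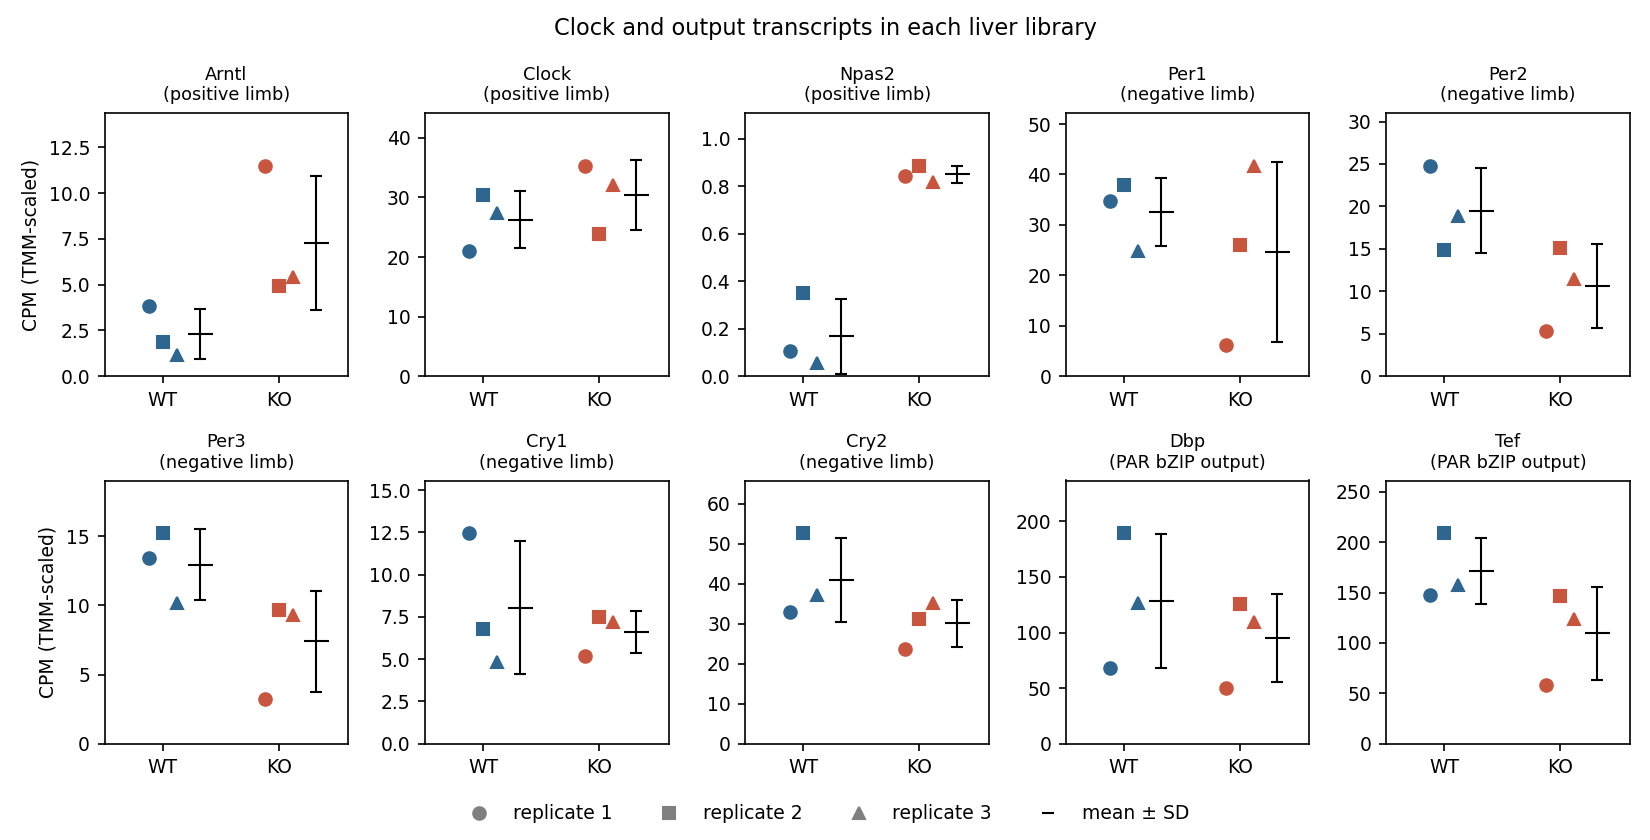
Levels of the 10 genes in each library (y axis, CPM scaled by TMM factors, starting at 0; x axis, genotype). Each marker is 1 library, its shape gives the replicate, and the bar gives the mean ± SD of 3 libraries. KO replicate 1 holds the highest Arntl (11.5 CPM) and the lowest Per1, Per2, Per3, Dbp and Tef of all 6 libraries.

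Arntl (chr7:113207465-113314126, mm10) encodes the indispensable partner of the activating pair. It was at 11.5, 4.90 and 5.43 CPM in KO replicates 1, 2 and 3 and at 3.82, 1.86 and 1.18 CPM in WT replicates 1, 2 and 3. Every KO library lay above every WT library, and KO replicate 1 was the highest of all. The group levels were 7.28 ± 3.67 CPM in KO and 2.28 ± 1.37 in WT (SD, n = 3 each), and the log2 fold change was 1.66 (SE 0.51, edgeR adjusted p = 0.0952). Without WT replicate 1 it rose to 2.27 and passed (edgeR adjusted p = 0.0434), and without KO replicate 1 it was 1.18 (edgeR adjusted p = 0.242), with a range of 0.0130 to 0.242 for the adjusted p over all alternatives.

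Npas2 (chr1:39193731-39363236), the relative that can stand in for Clock, was the least abundant member. Its counts were 20, 23 and 19 in KO replicates 1 to 3 and 2, 6 and 1 in WT replicates 1 to 3. The KO libraries were close together, at 0.850 ± 0.0347 CPM, and all lay above the WT libraries at 0.169 ± 0.158 CPM (SD, n = 3 each). The log2 fold change was 2.32 (SE 0.63, edgeR adjusted p = 0.0664). From 62 summed counts against 9, the ratio of KO to WT was 5.21 with a 95% exact binomial interval of 2.57 to 11.9, which covers counting error only. The stellate and cholangiocyte marker sums, like Arntl, Npas2 and 16.9% of all tested genes, were higher in every KO library than in any WT library. Taken singly, 6 of 8 stellate markers but only 1 of 6 tested cholangiocyte markers were so. Whether these sums bear on Arntl or Npas2 was not tested. For Npas2 the difference passed without WT replicate 2 (log2 fold change 3.34, edgeR adjusted p = 0.0296) and without scaling factors (edgeR adjusted p = 0.0490).

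Clock itself (chr5:76209868-76304792), whose transcript is known to cycle weakly, overlapped between the genotypes. It was at 35.3, 23.8 and 32.1 CPM in KO and at 21.1, 30.3 and 27.4 CPM in WT. The log2 fold change was 0.21 (SE 0.19, edgeR adjusted p = 0.535).

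Per1 (chr11:69095217-69109960), Per2 (chr1:91415982-91459324) and Per3 (chr4:151003652-151044665) encode the period proteins, and all 3 had their lowest level in KO replicate 1. Per1 was at 6.09, 26.0 and 41.7 CPM in KO replicates 1 to 3 and at 34.7, 37.8 and 24.9 in WT replicates 1 to 3. The other KO libraries were within or above the WT range, and the log2 fold change of -0.40 (SE 0.58, edgeR adjusted p = 0.704) became 0.072 without KO replicate 1. Per2 was at 5.33, 15.1 and 11.5 CPM in KO and at 24.8, 14.8 and 18.9 in WT, with a log2 fold change of -0.87 (SE 0.38, edgeR adjusted p = 0.199). Only KO replicate 2 reached into the WT range of Per2. Per3 was at 3.21, 9.69 and 9.31 CPM in KO and at 13.4, 15.2 and 10.2 in WT, with no overlap and a log2 fold change of -0.81 (SE 0.40, edgeR adjusted p = 0.251). The gap between the highest KO and the lowest WT library of Per3 was small, 9.69 against 10.2 CPM. Without KO replicate 1 the log2 fold changes of Per2 and Per3 were -0.54 and -0.44.

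Cry1 (chr10:85131700-85185064) and Cry2 (chr2:92403646-92434043) encode the cryptochromes, the strong repressors of the negative limb. Cry1, which peaks later than the Per genes, was at 5.20, 7.49 and 7.20 CPM in KO and at 12.5, 6.80 and 4.86 in WT. Its KO libraries lay inside the WT range, and WT replicate 1 was the highest by a wide margin. The log2 fold change of -0.28 (SE 0.35, edgeR adjusted p = 0.655) became 0.20 without WT replicate 1. Cry2 was at 23.8, 31.3 and 35.2 CPM in KO and at 32.9, 52.7 and 37.3 in WT, with a log2 fold change of -0.44 (SE 0.22, edgeR adjusted p = 0.240). KO replicate 3 alone overlapped the WT range of Cry2.

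Dbp (chr7:45705088-45710203) and Tef (chr15:81802421-81826863), the output factors, were the most abundant members. Dbp was at 49.9, 126 and 109 CPM in KO replicates 1 to 3 and at 68.4, 189 and 127 in WT replicates 1 to 3. The genotypes overlapped, and KO replicate 1 was the lowest library of all. The log2 fold change was -0.43 (SE 0.44, edgeR adjusted p = 0.577) and was -0.037 without WT replicate 2. Dbp shares 539 exon bases with Sphk2 on the opposite strand (GENCODE), and since no source used here says whether counting used strand, reads of the pair cannot be told apart there. Tef was at 58.1, 147.0 and 124 CPM in KO and at 147, 209 and 157 in WT, so the highest KO library and the lowest WT library were nearly equal. Its log2 fold change was -0.64 (SE 0.33, edgeR adjusted p = 0.271), and -0.33 without KO replicate 1.

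**Figure D2:**
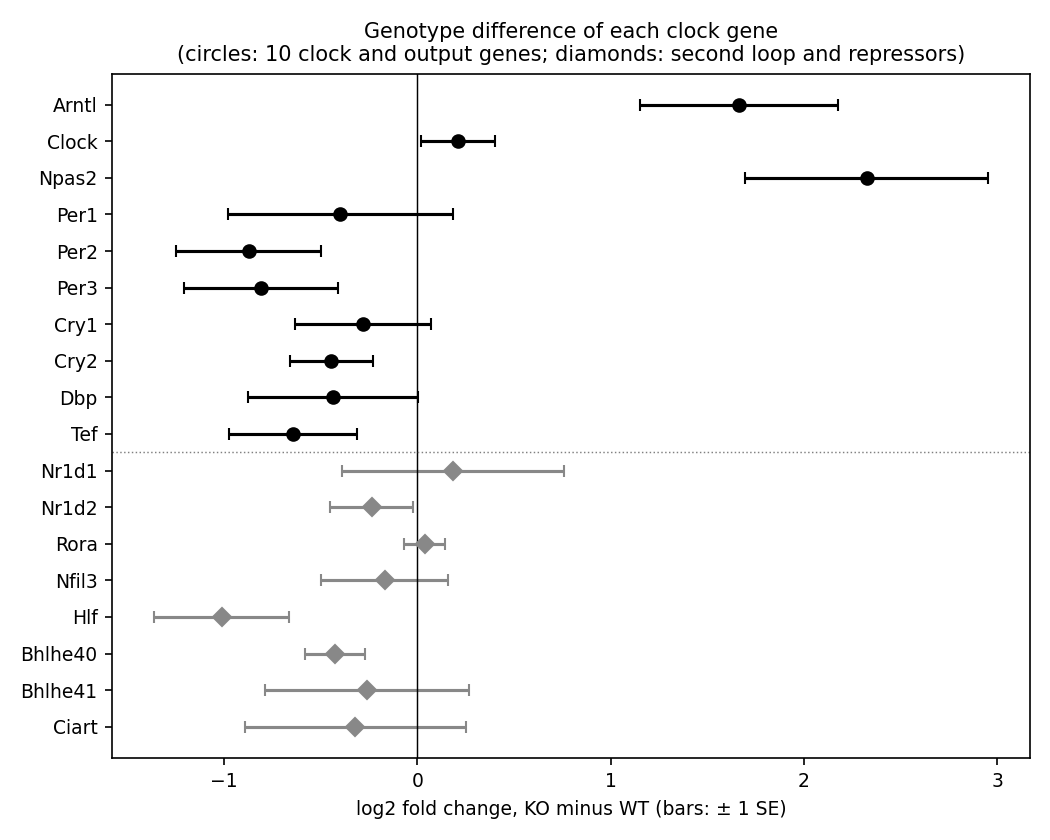
Log2 fold change of KO minus WT (x axis; bars, ± 1 SE from edgeR) for the 10 clock and output genes (circles) and 8 genes of the second loop and repressors (diamonds). Arntl (1.66) and Npas2 (2.32) lie on the KO-higher side and all 7 negative-limb and output genes on the KO-lower side, and none of the 18 passed with edgeR, while DESeq2 called Arntl, Npas2 and Hlf.

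Per kilobase of annotated exon, the WT levels followed the order Dbp (42.8 CPM per kb), Tef (21.8), Cry2 (6.48), Per1 (5.77), Per2 (3.33), Cry1 (2.41), Clock (1.91), Per3 (1.35), Arntl (0.304) and Npas2 (0.0353). The ranges of the 3 WT libraries did not touch between Tef and Cry2, Per1 and Per2, Per3 and Arntl, or Arntl and Npas2. The ranges of the other neighbours overlapped. Compared within each WT library, Dbp still stood above Tef, Per2 above Cry1 and Clock above Per3 every time. Cry2 and Per1 changed order between WT libraries, as did Cry1 and Clock. In KO the mean of Arntl (0.967 CPM per kb) stood above that of Per3 (0.770), and Clock (2.21) above Cry1 (1.98) and Per2 (1.82). Arntl stood above Per3 only in KO replicate 1 (1.53 against 0.334). In KO replicates 2 and 3 Arntl stood below Per3 (0.651 against 1.01, and 0.722 against 0.969). Clock lay above Cry1 and Per2 in KO replicates 1 and 3. In KO replicate 2 Clock (1.73) lay below Cry1 (2.24) and Per2 (2.58).

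The libraries of one genotype differed in clock transcripts more than in most genes. The SD of log2 CPM within genotypes, pooled over both, had a median of 0.594 over the 10 members and 0.241 over all tested genes. Of the members, 8 were above the 75th percentile of all tested genes, with Per1 (SD 1.04, percentile 97.2), Arntl (0.75, percentile 92.3) and Dbp (0.73, percentile 91.8) the most variable and Clock (0.28, percentile 58.3) the least. Npas2, with its few counts, was at percentile 86.1.

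KO replicate 1 stood apart from the other KO libraries, and did so over all genes as well: chi-square over degrees of freedom was 68.0 and 61.7 against KO replicates 2 and 3, and 21.5 between those 2. Between WT libraries it ran from 53.9 to 134, so the distances of KO replicate 1 were within that range. This library was the lowest in KO for 7 of 7 negative-limb and output genes and the highest for Arntl and Clock. The mean of KO replicates 2 and 3 was 5.57 times its level for Per1, 2.96 times for Per3, 2.35 times for Dbp and 2.33 times for Tef. Its Arntl level was 2.23 times the mean of the other 2. Its total of 20641510 counts was within the range of the other libraries, and its hepatocyte marker sum of 96764 CPM lay between those of KO replicates 2 and 3. Most of that sum was Alb (76211 CPM). Cps1 (2264 CPM against 4163 and 4896) and Tat (1099 against 1678 and 1920) were lower in KO replicate 1 than in KO replicates 2 and 3. Apoa1, Serpina1a and Hnf4a were also lowest there, by less, while Alb, Apob and Ttr lay between the other KO libraries. The stellate sum of KO replicate 1 (1077 CPM) was the highest of all libraries, with 1061 and 842 in KO replicates 2 and 3. Its sinusoidal endothelial sum (444 CPM) was the highest in KO, against 377 and 208. What sets this library apart was not tested.

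The WT libraries differed in another way. WT replicate 1 held the lowest Dbp, Tef and Cry2 of its genotype together with the highest Per2, Cry1 and Arntl. Nr1d1, the REV-ERB gene, named here after its values were seen, was at 19.8 CPM in that library against 134 and 57.1 in WT replicates 2 and 3, a range of 6.73-fold. In KO the 3 libraries stood at 79.5, 82.1 and 77.6 CPM, including replicate 1 in which the Per genes were lowest. Nr1d1 did not differ beyond this spread (log2 fold change 0.19, SE 0.57, edgeR adjusted p = 0.868), and it shares 263 exon bases with Thra on the opposite strand. WT replicate 1 also held the highest macrophage sum (2496 CPM) and stellate sum (481 CPM) of its genotype.

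**Figure D3:**
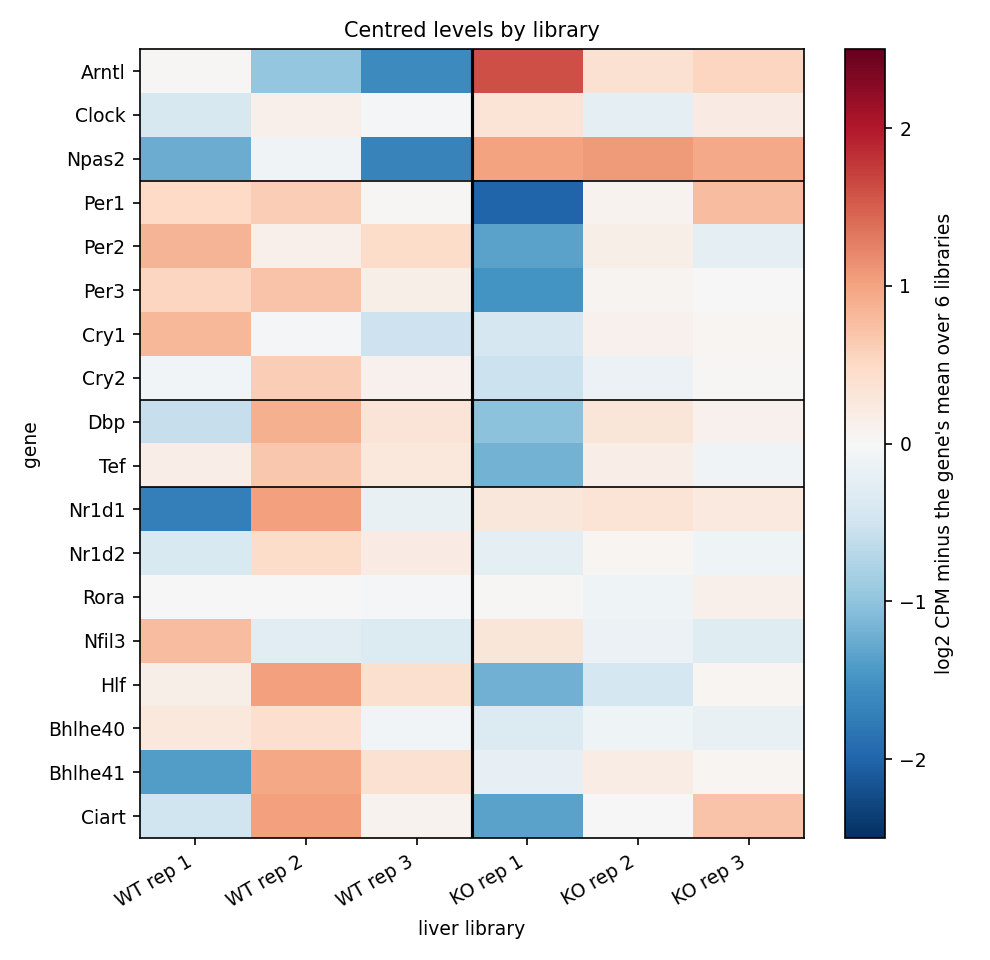
Each cell is log2 CPM minus that gene's mean over the 6 libraries (colour scale, blue low and red high), with libraries in columns and genes in rows: positive limb, negative limb, output, then second loop and repressors. KO replicate 1 is low for the Per genes, Dbp, Tef, Hlf and Ciart, whereas the lowest values of WT replicate 1 are in Nr1d1, Bhlhe41, Npas2 and Dbp.

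In the second loop and its repressors, 8 of 9 listed genes were tested and none passed with edgeR, 2 were lower at an unadjusted p under 0.05 (13.3% of all genes were), and 6 had a negative log2 fold change, as had 6435 of all 12945 genes. The 2 with the smallest p were lower in every KO library than in any WT library, as were 16.6% of all genes. The highest KO and lowest WT libraries were close, at 30.7 and 32.7 CPM for Hlf and 126 and 129 for Bhlhe40. Hlf, the third PAR bZIP factor, was at 12.9, 21.9 and 30.7 CPM in KO and at 32.7, 60.6 and 38.9 in WT (log2 fold change -1.01, SE 0.35, edgeR adjusted p = 0.127). DESeq2 called it lower (adjusted p = 0.0352). Bhlhe40, a repressor that competes for the E-box, was at 107, 126 and 119.6 CPM in KO and at 162, 181 and 129 in WT, a log2 fold change of -0.43 (SE 0.15, edgeR adjusted p = 0.136). Hlf had the sign of Dbp and Tef, and none of the 3 PAR bZIP genes passed with edgeR. Nfil3, the repressor that competes for the D-box, stood at a log2 fold change of -0.17, which was 0.30 without WT replicate 1 and 0.050 with library size only. Rorb was at 0 counts in every library.

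Ratios within 1 library do not depend on scaling, and they place a late gene against an earlier one. The log2 count ratio of Arntl to Per3 was 1.84, -0.98 and -0.78 in KO replicates 1 to 3 and -1.82, -3.03 and -3.12 in WT replicates 1 to 3. The means differed by 2.68, and by 3.50 for the ratio of Npas2 to Tef. That neither ratio overlapped between genotypes follows from the lack of overlap of these 4 genes and adds nothing to it. The ratio of Arntl to Dbp overlapped: WT replicate 1 (-4.16) lay above KO replicates 2 (-4.68) and 3 (-4.33), although the means differed by 2.15. The ratio of Cry1 to Per2 overlapped by 0.02, with means of -0.58 ± 0.50 in KO and -1.36 ± 0.52 in WT (SD, n = 3 each). With no sampling time in the labels and no time series, a shift of phase and a change of level or amplitude cannot be told apart.

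**Figure D4:**
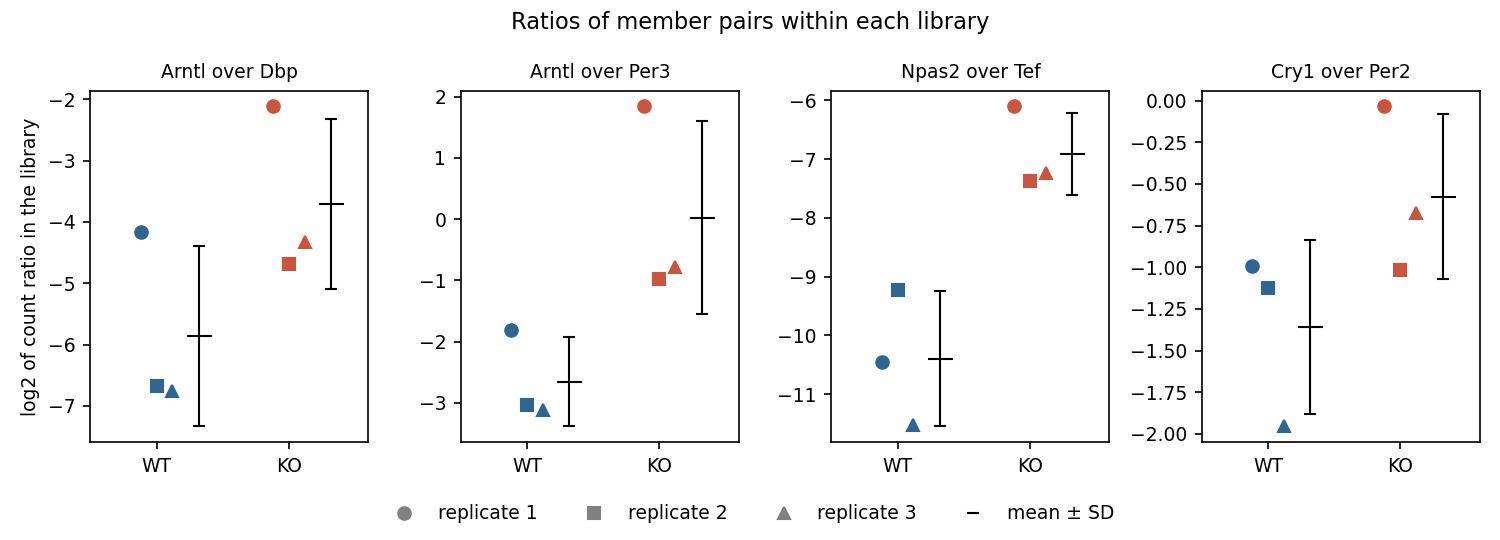
Log2 of the ratio of counts of 2 genes in the same library (y axis) by genotype (x axis), with 1 marker per library and the mean ± SD of 3. Arntl over Per3 and Npas2 over Tef pair genes that each did not overlap between genotypes, so their separation is given beforehand, and for Arntl over Dbp WT replicate 1 lies above KO replicates 2 and 3.

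Among genes that modify clock proteins or act beside them, 1 of 19 tested rose and 1 fell, near the 3.36% and 3.58% of all genes. Cipc, which encodes an inhibitor of CLOCK, was at 35.8 ± 2.83 CPM in WT and 24.6 ± 1.18 in KO (SD over 3 libraries) and fell by 0.55 on the log2 scale (SE 0.11, edgeR adjusted p = 0.0332). Kdm5a, a histone demethylase that assists the activating pair, rose from 27.3 ± 0.535 to 37.0 ± 1.75 CPM (log2 fold change 0.44, SE 0.10, edgeR adjusted p = 0.0452). Both were even within genotypes, unlike the core members. Cipc missed the threshold without KO replicate 1, 2 or 3, without WT replicate 3 and without scaling factors (edgeR adjusted p of up to 0.193), and Kdm5a without each library in turn and without the low-count filter (up to 0.133). 

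Of 16 tested liver genes known to be under clock control, 2 fell and 1 rose, against 3.58% and 3.36% of all genes. At an unadjusted p under 0.05, 7 were lower and 2 higher, against 13.3% and 12.5% of all genes. With DESeq2, 7 were called lower and 1 higher, against 8.2% and 7.11%. Libraries did not overlap for 8 that were lower and 2 that were higher, against 16.6% and 16.9%. The list was chosen with earlier results of these data known, and no set test was run. A negative log2 fold change was found for 12 of the 16 (median -0.75) and for 6435 of all 12945 genes. Lpin1, a phosphatidate phosphatase, was at 62.5, 227 and 163 CPM in the WT libraries and fell to 22.4, 42.8 and 37.8 with the KO genotype (log2 fold change -2.14, SE 0.47, edgeR adjusted p = 0.0440). The other faller was the elongase Elovl3 (log2 fold change -5.41, SE 0.95, edgeR adjusted p = 0.0239), which was at 1.82, 1.54 and 2.67 CPM in KO and at 16.5, 191 and 48.1 in WT. Without WT replicate 2, the highest library, its log2 fold change was -4.01. Cdkn1a, the cell cycle inhibitor p21, rose from 15.7, 2.79 and 8.23 CPM to 54.0, 42.7 and 51.1 (log2 fold change 2.46, SE 0.52, edgeR adjusted p = 0.0393). All 3 missed the threshold without KO replicate 1, 2 or 3, without WT replicate 3 and without the low-count filter, with an edgeR adjusted p of up to 0.139 for Lpin1, 0.109 for Elovl3 and 0.124 for Cdkn1a. Lpin1 also missed it without WT replicate 2 and Elovl3 with limma-voom.

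KO replicate 1 was the lowest KO library for 12 of these 16 genes as well. Cyp7a1, the rate-limiting enzyme of bile acid synthesis and a known target of PAR bZIP factors, was at 5.41, 16.4 and 54.3 CPM in KO replicates 1 to 3 and at 56.3, 103 and 88.0 in WT. Alas1, the first enzyme of heme synthesis, was at 131, 398 and 329 CPM in KO and at 372, 461 and 695 in WT. Por, the electron donor of P450 enzymes, was at 370, 958 and 1137 CPM in KO and at 603, 667 and 614 in WT. None of these 3, which were named after their values were seen, passed (edgeR adjusted p = 0.197, 0.263 and 0.561).

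The genes with the profile most like that of Arntl over the 6 libraries, by root mean square distance of centred log2 CPM among 11651 genes, were Loxl4 (distance 0.264), Neurl1b (0.320), Plxna3 (0.335), Wfdc15b (0.359) and Il7r (0.361). Loxl4, a lysyl oxidase family gene of matrix crosslinking, was at 16.4, 6.56 and 6.94 CPM in KO and at 3.61, 2.96 and 2.03 in WT. For Dbp they were Angptl4 (0.140), Slc7a2 (0.148), Fbxo31 (0.152), Socs2 (0.195) and Brap (0.201). Angptl4, an inhibitor of lipoprotein lipase, was at 47.1, 91.5 and 96.2 CPM in KO and at 52.4, 139 and 96.6 in WT. Among the 8 other members compared, which leave out Npas2 for its low level, Tef (distance 0.335) and Cry2 (0.369) were the nearest to Dbp, and Arntl (1.56) the farthest. Ranked by nearness to Dbp among all the genes compared, Tef was at 84, Cry2 at 159 and Per3 at 1397. Per1, Clock, Per2, Cry1 and Arntl ranked from 5969 to 11332, so most members were not among its near profiles.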

How the data were processed

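Mouse liver RNA was sequenced from TruSeq libraries, 3 labelled Sesn3 KO and 3 WT, per the labels' protocols. The authors deposited whole-number read counts per gene symbol, 1 column per library, not normalized. Per the submitters' processing notes the build was mm10 and the tools were edgeR 3.20.8, Subread 1.5.3, featureCounts and STAR 2.5; annotation, strand setting and handling of multiply mapped reads: not given in the sources used here. The labels call them separate samples without naming animals, and p-values thus cover the spread between samples, which may be technical. No pair within a group agreed within sampling noise (chi-square over degrees of freedom from 21.5 to 134).

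All genes were tested with edgeR 4.0.16 (R 4.3.3): filterByExpr with a minimum count of 10 and a minimum total of 15, TMM factors, robust glmQLFit and a two-sided quasi-likelihood F-test (KO minus WT), adjusted by Benjamini-Hochberg over 12945 genes, threshold 0.05. SE is the log2 fold change over the root of F. The smallest exact permutation p of 3 against 3 is 0.10. Members and lists were chosen with earlier results of these data known, and 1 gene of the second loop is not reported here. Named genes were the members, Sesn3, up to 4 called genes per list or otherwise the 2 with the smallest p, and the 5 nearest profiles of Arntl and Dbp, leaving out unnamed gene models. Nr1d1, Nfil3, Cyp7a1, Alas1, Por, Clec4f, Vsig4, Tff3, Cirbp and the single hepatocyte markers were named after their values were seen. Noct was matched to its older symbol Ccrn4l through RefSeq. Positions and exon lengths came from GENCODE mouse release 21 (GRCm38), promoters from RefSeq GRCm38.p6. The script was tested on simulated data. Alternatives were DESeq2 1.42.0, limma-voom (limma 3.58.1), other factors (RLE, upper quartile, none), other filters (none, 1 CPM in 3 libraries), a fit that was not robust, and each library left out.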

Additional observations from a re-analysis of the deposited data

How the results depend on the processing

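The split of called genes, 435 higher and 463 lower in KO, was 707 and 258 with library size only, which moved the median log2 fold change of all genes by 0.21, and 921 and 1061 with DESeq2. Without 1 library in turn it ran from 48 to 504 higher and from 53 to 475 lower. Of the 10 clock members, 0 were called lower under all 14 alternatives, while the number called higher was 1 with library size only (Npas2), 2 with DESeq2 and 0 to 1 without 1 library. In the other clock lists 2 were higher and 3 lower, against 0 and 1 without the low-count filter, 4 and 12 with DESeq2, and 0 to 3 and 0 to 6 without 1 library. The cause was not tested. Signs changed for the 6 genes below and, among plotted genes, for Bhlhe41 and Ciart (positive under 2 settings each) and Rora (negative under 1), none of them called under any setting. Without 1 library in turn, the log2 fold change ran from -1.01 to 0.072 for Per1 and -0.55 to 0.014 for Slc7a2 (highest without KO replicate 1), from -0.53 to 0.20 for Cry1 and -0.36 to 0.30 for Nfil3 (highest without WT replicate 1), from -0.25 without WT replicate 1 to 1.05 without WT replicate 2 for Nr1d1, and from -0.58 to 0.074 for Angptl4 (highest without WT replicate 2). With library size only, Nfil3 was at 0.050. The other 8 members kept their sign under every alternative that tested them; Npas2 did not pass the filter of 1 CPM in 3 libraries. The differences in pair ratios kept their sign without each library, with a lowest value of 1.36 for Arntl over Dbp and ranges of 1.78 to 3.19 for Arntl over Per3, 2.94 to 4.09 for Npas2 over Tef and 0.48 to 1.00 for Cry1 over Per2. Depth limits Npas2, which had 9 counts over the 3 WT libraries. No paired analysis was possible because the labels give no replicate numbers.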

Other observations

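Temperature-responsive genes, a group that includes systemically driven rhythms of the liver, held no call: of 10 tested, 0 passed with edgeR, 2 were lower at an unadjusted p under 0.05, and DESeq2 called 2 lower, against 13.3% and 8.2% of all genes. The median log2 fold change was -0.17. The heat shock cochaperone Dnaja1 was at 67.7, 73.1 and 77.3 CPM in KO replicates 1 to 3 and at 101, 93.7 and 101 in WT (log2 fold change -0.44, SE 0.11, edgeR adjusted p = 0.0529). Hsp90aa1, a heat-inducible chaperone, was at 142 ± 32.9 CPM in KO and 224 ± 38.3 in WT (SD over 3 libraries), a log2 fold change of -0.65 (SE 0.20, edgeR adjusted p = 0.0946). The cold-inducible Cirbp stood at a log2 fold change of 0.19 (SE 0.21, edgeR adjusted p = 0.615).

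Glucocorticoid-responsive genes read out a signal that can feed into Per1. Of 7 tested, 5 had a positive log2 fold change and 2 a negative one, with a median of 0.90. With edgeR 0 of the 7 passed, with 3 higher and 1 lower at an unadjusted p under 0.05 and 2 higher and 1 lower with DESeq2. Of all genes, 12.5% were higher and 13.3% lower at that p, and 7.11% and 8.2% with DESeq2. Fkbp5, a cochaperone of the glucocorticoid receptor, was at 63.9, 85.5 and 132 CPM in KO and at 56.4, 41.4 and 46.4 in WT (log2 fold change 0.96, SE 0.27, edgeR adjusted p = 0.0732). Zbtb16 was at 5.03, 7.60 and 3.15 CPM in KO and at 18.8, 7.73 and 13.0 in WT (log2 fold change -1.32, SE 0.41, edgeR adjusted p = 0.0969). KO replicate 1 was the lowest KO library for 4 of the 7 genes, and WT replicate 1 was the highest WT library for all 7.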
